A study of Mus musculus with 8 samples.

Results

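Transcripts of 10 genes that are widely used to mark cancer-associated fibroblasts were followed through 8 mouse tumours. They were chosen by name, as Fap, Pdgfra, Pdgfrb, Postn, Lrrc15, Acta2, Tagln, Dcn, Lum and Fn1, and each was found once among the 55450 genes of the deposited table. MOC1 is a line of mouse oral squamous cell carcinoma. Here it formed flank tumours in C57BL/6 animals, although the labels' source field names tongue carcinoma, and each animal received antibody against the checkpoint receptor PD-1 together with an antisense oligonucleotide (ASO) over 32 days. In 5 animals the ASO was directed at Smyd3, a lysine methyltransferase, and in 3 it was a control ASO. The labels mark 2 of the Smyd3 ASO tumours as responders, numbered 1 and 3, and 2 as non-responders, called 1 and 2 here only in the order of their listing. The fifth, number 2, carries no response mark and is called the unmarked tumour. All tumours come from 1 carcinoma line, host cells were not removed, and the age and sex of the mice are not given in the sources used here. Polyadenylated RNA was sequenced from whole frozen tumours, and the 8 libraries held 22103853 to 27258700 expected counts. Levels are given as CPM, counts scaled to the size of the library after TMM normalisation, in responder 1, responder 3, the unmarked tumour, non-responders 1 and 2 and controls 1 to 3.

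Fibroblasts are the cells that make and remodel connective tissue, and inside carcinomas they take on several states. Myofibroblast-like cells respond to TGF-beta, contract and lay down dense matrix. Inflammatory fibroblasts secrete cytokines and chemokines, and quiescent tissue fibroblasts carry PDGF receptor alpha and small proteoglycans. None of the 10 markers belongs to fibroblasts alone. Pericytes carry Pdgfrb, vascular smooth muscle carries Acta2 and Tagln, and carcinoma cells can express Fn1 and Tagln.

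In the Smyd3 ASO tumours the marker set split. Pdgfrb, Lrrc15, Postn, Tagln and Fn1 were lower in every Smyd3 ASO tumour than in every control tumour, at 37.5% to 59.0% of the control mean. Fap, Pdgfra, Dcn and Lum had means of 112% to 134% of the control mean, with overlapping groups, and Acta2 lay between at 73.5%. None of the 10 passed a false discovery rate (FDR) of 0.05 in the edgeR test over all 16911 genes kept, where 0% of genes were called and the lowest FDR of any gene was 0.0656. An unadjusted p below 0.05 was found for 5 of the 10, all lower, and for 7% of all genes in that direction. Groups that do not overlap, with Smyd3 ASO lower, were also found for 5 of the 10, against 5.14% of all genes. Of the 10, 6 had a log2 fold change below 0, as did 48.2% of all genes. DESeq2 called the 5 that do not overlap as lower, and 2.28% of all genes, and limma voom called 0. In other edgeR fits 1 member was called as lower without a count filter (0.108% of all genes), in the 6 numbered libraries with the replicate block (0.215%) or without it (0.287%) and without control 1 (0.0298%). Without non-responder 1 edgeR called 4 members (0.415%), and in a 4-group model it called 0, with 0.148% of genes in either direction. The median log2 fold change of the 10 was −0.60, beside 0.013 over all genes, and −0.35 without control 2. In bulk tissue, fewer fibroblasts and less of a transcript per fibroblast cannot be told apart.

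The ASO target and the other cells of the tumour set the frame for these values. Smyd3 stood at 8.68, 4.38, 4.58, 9.26 and 4.88 CPM in responder 1, responder 3, the unmarked tumour and non-responders 1 and 2, against 10.7, 11.9 and 10.6 CPM in controls 1 to 3. It was lower in every Smyd3 ASO tumour, unevenly, with a log2 fold change of −0.80 (SE 0.29) and an edgeR FDR of 0.246. Keratinocyte and carcinoma markers were abundant in all libraries. The 10 markers summed to 18726 to 36712 CPM in Smyd3 ASO tumours and 28614 to 36131 CPM in controls. Among Smyd3 ASO tumours only non-responder 1 lay above the lowest control. All 10 had a log2 fold change below 0, with a median of −0.29, where 48.2% of all genes were below 0. Of 10 endothelial markers 9 were below 0, with a median of −0.26, so lower values were not particular to fibroblast lists. Skeletal muscle markers differed most. The 15 of them summed to 751 to 12713 CPM in Smyd3 ASO tumours, against 35.5 to 108 CPM in controls, and all 15 were higher in every Smyd3 ASO tumour, as were 5.45% of all genes. Ckm, the muscle creatine kinase, stayed below 2 CPM in each control. The 10 adipocyte markers summed to 44.7 to 360 CPM in Smyd3 ASO tumours and 39.8 to 66.3 CPM in controls, where Adipoq had 0 counts in 2 of the 3. Adipoq was also at 0 CPM in non-responder 1. The sums of the unmarked tumour (44.7 CPM) and non-responder 1 (54.3 CPM) lay inside the control range, and non-responder 2 was just above it at 67.3 CPM. The part of muscle and adipose tissue in the fibroblast values was not tested.

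Promoter sequence was at hand for 4 of the 10 genes, from RefSeq on build GRCm38.p6. It is shown for Postn and Lrrc15, which were lower in the Smyd3 ASO tumours, and for Pdgfra, which was not, as the 150 bases before the gene start. The Postn stretch is chr3:54360957-54361106 on the plus strand, the Lrrc15 stretch chr16:30283257-30283406 on the minus strand and the Pdgfra stretch chr5:75152101-75152250 on the plus strand.
Postn: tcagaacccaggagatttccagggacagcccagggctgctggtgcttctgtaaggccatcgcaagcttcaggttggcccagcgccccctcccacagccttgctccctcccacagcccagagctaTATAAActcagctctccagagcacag
Lrrc15: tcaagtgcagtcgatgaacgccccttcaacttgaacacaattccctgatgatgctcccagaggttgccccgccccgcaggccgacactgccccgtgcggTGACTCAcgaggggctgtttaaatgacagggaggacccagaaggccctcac
Pdgfra: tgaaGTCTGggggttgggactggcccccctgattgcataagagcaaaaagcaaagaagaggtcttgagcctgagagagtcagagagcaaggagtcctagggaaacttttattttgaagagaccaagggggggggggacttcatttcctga
Capitals mark matches to 5 motifs searched on both strands in the 250 bases before the RefSeq start. They were the TATA box TATAAA, the AP-1 site TGANTCA, the Smad box CAGAC, the MCAT element GGAATG and the CArG box. The marked match is a TATA box in Postn, an AP-1 site in Lrrc15 and a Smad box on the opposite strand in Pdgfra, and no matches overlapped. In Acta2 an MCAT element and a Smad box matched, but its sequence is not shown. The GENCODE start lies 217 bases before the RefSeq start, which left 33 bases, fewer than the 150 shown for the others. Counted from the RefSeq start, the MCAT match (−146 to −141) lies after the GENCODE start and the Smad box (−235 to −231) before it. Beyond those 33 bases, sequence before the GENCODE start of Acta2 was not searched. Among all 32851 promoters of the table, 12.4% hold the TATA box, 6.75% the AP-1 site, 42.2% the Smad box, 12.6% the MCAT element and 1.47% the CArG box. A match describes the letters and shows no binding.

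The receptors for platelet-derived growth factor (PDGF) went separate ways. Pdgfrb, the beta receptor of pericytes and activated fibroblasts, stood at 60.4, 54.5, 49.7, 57.4 and 53.6 CPM in responder 1, responder 3, the unmarked tumour and non-responders 1 and 2, against 82.7, 137 and 111 CPM in controls 1 to 3. The 5 Smyd3 ASO tumours lay within 1.21-fold of each other and below every control. Its log2 fold change of −1.002 (SE 0.15, FDR 0.0656) had the smallest FDR among the 10. Pdgfra, the alpha receptor that marks tissue fibroblasts, stood at 24.2, 45.2, 36.1, 17.3 and 20.6 CPM in the same Smyd3 ASO tumours, against 13.7, 29.4 and 21.04 CPM in controls. Responder 3 and the unmarked tumour lay above all controls and the other 3 among them, for a log2 fold change of 0.43 (SE 0.36, FDR 0.617). It was 0.19 without control 1, 0.74 without control 2 and 0.19 without responder 3. Of the ligands, Pdgfb averaged 58.3 ± 14.4 CPM in Smyd3 ASO tumours (SD, n = 5) and 87.6 ± 42.3 CPM in controls (SD, n = 3), and Pdgfa 54.7 ± 10.3 and 81.9 ± 47.4 CPM. All 5 genes of the list of ligands and the receptor-like Pdgfrl were below 0, with a median log2 fold change of −0.30 and 0 at an unadjusted p below 0.05. In Pdgfa and Pdgfb control 2 alone reached 136 to 137 CPM, above every other tumour.

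**Figure D1:**
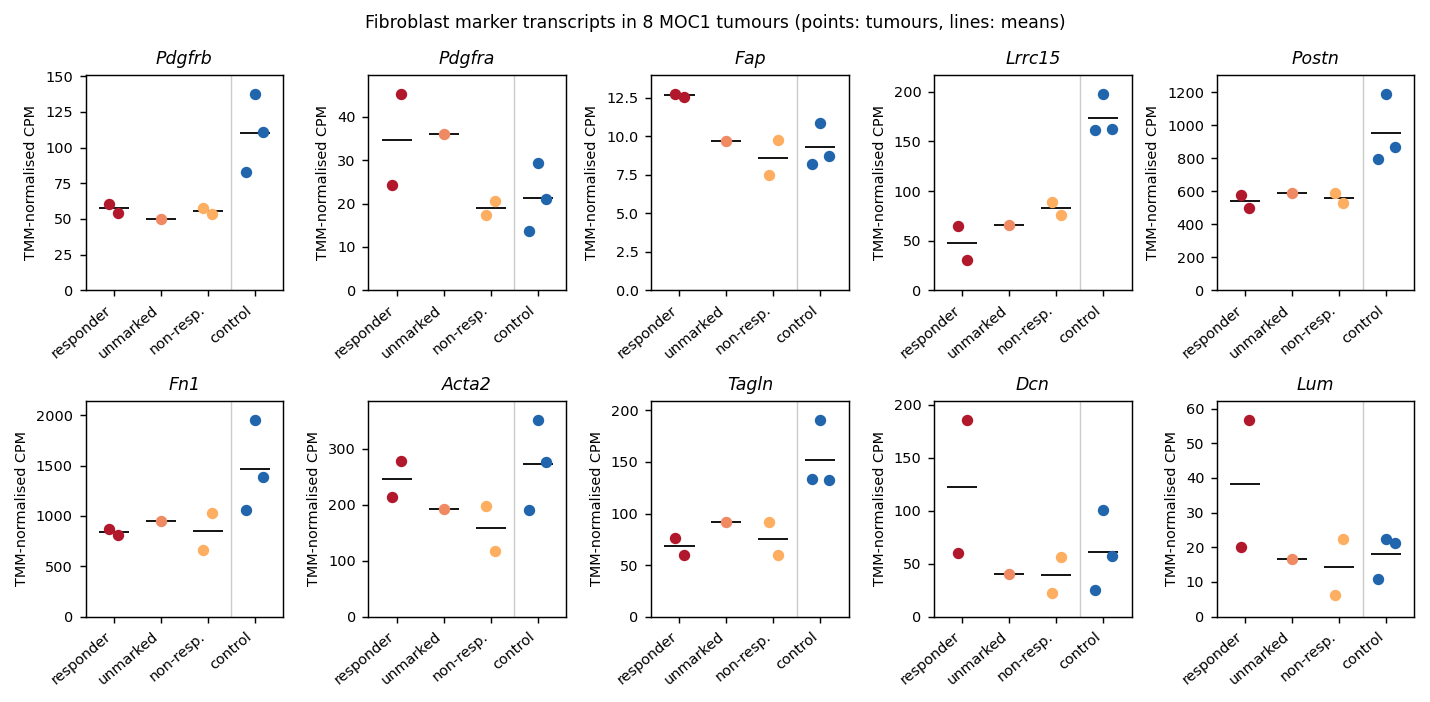
CPM of the 10 markers in each tumour, with responder, unmarked and non-responder Smyd3 ASO tumours left of the grey line and control ASO tumours right of it; points are tumours and black lines are group means. In Pdgfrb, Lrrc15, Postn, Fn1 and Tagln every control lies above every Smyd3 ASO tumour, while the groups overlap in the other 5.

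The cell surface markers Fap and Lrrc15 also differed from each other. Fap, a serine protease of activated fibroblasts, had the lowest mean per kilobase in both arms, with a spread that overlapped that of Pdgfra in each. It stood at 12.7, 12.6, 9.67, 7.46 and 9.76 CPM in responder 1, responder 3, the unmarked tumour and non-responders 1 and 2, against 8.23, 10.9 and 8.75 CPM in controls. The responders were above all controls and non-responder 1 below them, with a log2 fold change of 0.17 (SE 0.21) and an FDR of 0.751. Leaving out 1 library moved it between 0.079 without responder 1 and 0.31 without control 2, and it was 0.084 without responder 3, 0.089 without control 1 and 0.27 without non-responder 1. Lrrc15, a leucine-rich repeat membrane protein of TGF-beta-driven myofibroblasts, had the lowest ratio to controls of the 10. It stood at 65.3, 30.7, 65.4, 89.5 and 75.6 CPM in the Smyd3 ASO tumours, against 162, 198 and 163 CPM in controls, a log2 fold change of −1.41 (SE 0.28, FDR 0.0939). Even the highest Smyd3 ASO tumour, non-responder 1, lay well below the lowest control. Among relatives of Fap 4 of 5 measured genes were below 0, with a median of −0.06. Dpp6, a relative without protease activity that binds potassium channels, averaged 0.916 ± 0.522 CPM in Smyd3 ASO tumours and 2.76 ± 2.10 CPM in controls. Its log2 fold change was −1.58 (FDR 0.258), the only one of the list at an unadjusted p below 0.05, and the groups overlapped. Over all genes 7% were lower at that level. Dpp4, a protease of tissue fibroblasts and lymphocytes, averaged 4.28 ± 2.25 CPM in Smyd3 ASO tumours and 2.34 ± 1.03 CPM in controls (log2 fold change 0.87, FDR 0.437).

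Postn and Fn1, glycoproteins of the matrix, were the most abundant members in reads. Postn encodes periostin, which promotes the cross-linking of collagen and binds integrins. It stood at 576, 501, 588, 592 and 528 CPM in responder 1, responder 3, the unmarked tumour and non-responders 1 and 2, against 798, 1188 and 869 CPM in controls 1 to 3. The Smyd3 ASO tumours were within 1.182-fold of each other, the narrowest range of any member, and the log2 fold change was −0.77 (SE 0.14, FDR 0.091). Fn1 encodes fibronectin, a scaffold for collagen assembly. It stood at 867, 808, 954, 667 and 1028 CPM in the Smyd3 ASO tumours, against 1060, 1948 and 1387 CPM in controls. The gap between the arms was small in Fn1, since non-responder 2 lay just under control 1, and the log2 fold change of −0.76 (SE 0.21, FDR 0.145) became −0.49 without control 2. Among 12 fibronectin receptors and partners, 4 were lower and 1 higher at an unadjusted p below 0.05 and the median was −0.19. Over all genes 7% were lower and 8.55% higher at that level. Itga5, which pairs with Itgb1 to form the classical fibronectin receptor, averaged 96.4 ± 13.6 CPM in Smyd3 ASO tumours and 168 ± 51.2 CPM in controls (−0.80, FDR 0.106), with no overlap. Tgm2, a transglutaminase that cross-links fibronectin, averaged 310 ± 133 and 130 ± 37.3 CPM, higher in the Smyd3 ASO arm with 1 tumour, non-responder 1, inside the control range (1.26, FDR 0.176).

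The contractile markers are shared with vascular smooth muscle. Tagln encodes transgelin, an actin-binding protein, and stood at 76.0, 60.2, 91.6, 91.6 and 59.9 CPM in responder 1, responder 3, the unmarked tumour and non-responders 1 and 2, against 134, 190 and 133 CPM in controls. It was lower in every Smyd3 ASO tumour (log2 fold change −1.005, SE 0.19, FDR 0.0939). Acta2, the alpha-smooth muscle actin of myofibroblasts, stood at 214, 278, 192, 199 and 118 CPM, against 191, 351 and 276 CPM in controls. Only non-responder 2 lay below the control range, and the difference of −0.44 on the log2 scale (SE 0.27, FDR 0.471) became −0.21 without control 2. Of the 12 contractile and stress fibre genes shared with other cells, 10 were below 0 with a median of −0.33. At an unadjusted p below 0.05, 6 of the 12 were lower, beside 7% of all genes. Examples were Flna, an actin cross-linker, at 1016 ± 135 CPM in Smyd3 ASO tumours and 1628 ± 223 CPM in controls, and Cald1, an actomyosin regulator, at 489 ± 97.0 and 747 ± 96.2 CPM.

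Acta2 shares most of its coding sequence with Acta1 of skeletal muscle, Actc1 of heart and Actg2 of visceral smooth muscle, so reads may be split between them. Acta1 stood at 594, 2665, 1115, 143 and 243 CPM in responder 1, responder 3, the unmarked tumour and non-responders 1 and 2, against 15.2, 8.78 and 20.9 CPM in controls. The expected count of Acta2 departed from a whole number in 3 libraries, by at most 0.08 reads, and those of the other 9 members in none. Smooth muscle myosin, Myh11, averaged 12.0 ± 3.98 CPM in Smyd3 ASO tumours and 13.7 ± 1.84 CPM in controls (−0.19, FDR 0.770). Of 9 measured smooth muscle genes, 7 were below 0 with a median of −0.19. The 2 that were higher in every Smyd3 ASO tumour, as were 5.45% of all genes, were Des and Synpo2. They encode desmin and a Z-disc protein and are also carried by skeletal muscle. All 10 pericyte genes were below 0, with a median of −0.56. Their sum was 375 to 518 CPM in Smyd3 ASO tumours and 532 to 645 CPM in controls. At an unadjusted p below 0.05, 3 of the 10 were lower, beside 7% of all genes. Groups did not overlap in 2, both lower, beside 5.14% of all genes. Kcnj8, a potassium channel of pericytes, averaged 4.98 ± 1.94 and 14.0 ± 5.13 CPM (−1.48, FDR 0.101), and the receptor Notch3 averaged 79.4 ± 12.4 and 115 ± 12.5 CPM (−0.53, FDR 0.139), while the pericyte marker Rgs5 averaged 112 ± 15.3 and 145 ± 40.04 CPM with overlap (−0.37, FDR 0.382). The part of pericytes in the Pdgfrb values was not tested.

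Dcn and Lum encode decorin and lumican, small leucine-rich proteoglycans that bind collagen fibrils, and lie next to each other on chromosome 10 of mm10 (97479609 to 97518143 and 97565128 to 97572703, both on the plus strand). Dcn stood at 60.5, 185, 40.5, 22.2 and 56.6 CPM in responder 1, responder 3, the unmarked tumour and non-responders 1 and 2, against 25.6, 100 and 57.1 CPM in controls. Lum stood at 20.1, 56.6, 16.8, 6.31 and 22.3 CPM in the Smyd3 ASO tumours, against 10.8, 22.5 and 21.1 CPM in controls. Responder 3 was highest and non-responder 1 lowest of all 8 tumours in both genes. The spread within the Smyd3 ASO arm was 8.36-fold in Dcn and 8.96-fold in Lum, wider than the difference between the arm means of any member. Log2 fold changes were 0.26 (SE 0.68, FDR 0.892) in Dcn and 0.43 (SE 0.60, FDR 0.783) in Lum, and without responder 3 they were −0.45 and −0.16. Responder 3 also had the highest adipocyte sum, 360 CPM against 81.4 CPM in the next tumour, and the highest skeletal muscle sum. The part of these tissues in the Dcn and Lum values was not tested. Of 13 further members of the proteoglycan family 9 were measured and 8 of these were below 0, with a median of −0.34. Bgn, biglycan, averaged 675 ± 112 CPM in Smyd3 ASO tumours and 1064 ± 351 CPM in controls (−0.66, FDR 0.198), and Aspn, asporin, 28.8 ± 5.99 and 48.1 ± 9.75 CPM (−0.74, FDR 0.143).

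**Figure D2:**
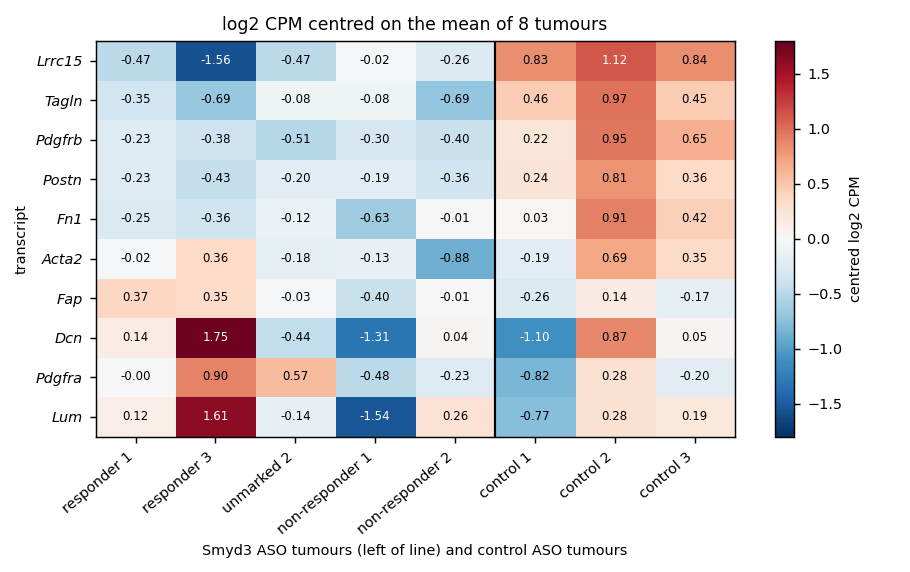
log2 CPM of each marker minus its mean over the 8 tumours, with Smyd3 ASO tumours left of the black line and control ASO tumours right of it; rows are ordered by log2 fold change. The upper 5 rows are positive in all 3 controls and negative in all 5 Smyd3 ASO tumours, and Dcn and Lum reach 1.75 and 1.61 in responder 3.

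Levels were compared between markers per kilobase of merged exon. Merged exons span all annotated transcripts of a gene and can be longer than the transcript expressed. A marker may then read too low, so the order between markers depends on this length. In Smyd3 ASO tumours Acta2 led at 91.2 ± 26.1 CPM per kilobase, followed by Fn1 at 74.0 ± 11.9 and Postn at 64.0 ± 4.66, and in controls Fn1 (125 ± 38.5), Acta2 (124 ± 36.5) and Postn (109 ± 23.9) led. These 3 did not differ beyond their spread in either arm. Tagln followed at 38.1 ± 7.94 CPM per kilobase in Smyd3 ASO tumours and 76.5 ± 16.6 in controls. In Smyd3 ASO tumours Dcn (12.5 ± 11.1), Lrrc15 (12.3 ± 4.09), Pdgfrb (10.1 ± 0.735) and Lum (9.97 ± 7.76) lay within each other's spread. In controls Lrrc15 (32.8 ± 3.85) stood above Pdgfrb (20.2 ± 4.99), Dcn (10.45 ± 6.43) and Lum (7.42 ± 2.603). There the spreads of Pdgfrb and Dcn overlapped, as did those of Dcn and Lum. Pdgfra (2.86 ± 1.16 and 2.13 ± 0.786) and Fap (1.84 ± 0.392 and 1.64 ± 0.248) were the lowest in Smyd3 ASO tumours and in controls.

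How alike the members were was measured as the mean absolute difference of their centred log2 CPM over the 8 tumours. The closest pair was Pdgfrb and Postn at 0.121, then Postn and Fn1 at 0.167 and Postn and Tagln at 0.177. Dcn and Lum were the sixth closest pair at 0.247, and the farthest apart were Lrrc15 and Lum at 1.15. Differences among the 5 markers that were lower in every Smyd3 ASO tumour ranged from 0.121 to 0.509 in 10 pairs. Those between these 5 and Fap, Pdgfra, Dcn and Lum ranged from 0.414 to 1.15 in 20 pairs. Among Fap, Pdgfra, Dcn and Lum themselves they ranged from 0.247 to 0.601 in 6 pairs, which overlaps both other ranges. These ranges describe markers sorted by their values, and carry no test. Control 2 was the highest of the 8 tumours in 6 members, Pdgfrb, Postn, Lrrc15, Acta2, Tagln and Fn1. The 5 genes outside the set that lay nearest to the members' median profile were Col4a5, Lhfp, Prss23, Sparc and Dll4, at 0.0782 to 0.101, where the median over 14354 candidates was 0.34. Of the members, Pdgfra (0.471), Lrrc15 (0.531), Dcn (0.612) and Lum (0.623) lay farther from this profile than that median. Fap was near it at 0.332, and the others lay at 0.149 to 0.309, so the profile does not stand for the whole set. Sparc encodes a collagen-binding matrix protein (log2 fold change −0.69, SE 0.21, FDR 0.188) and Col4a5 a basement membrane collagen chain (−0.61, SE 0.17, FDR 0.161).

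Other fibroblast genes were read beside the members. In the list of matrix-producing fibroblasts 14 of 17 genes were below 0, with a median log2 fold change of −0.67. At an unadjusted p below 0.05, 8 were lower and 1 was higher, beside 7% and 8.55% of all genes. Spon1, a secreted matrix protein, averaged 81.3 ± 9.58 CPM in Smyd3 ASO tumours and 163 ± 25.6 CPM in controls (−1.001, SE 0.13, FDR 0.0656). Cdh11, the cadherin of mesenchymal cells, averaged 42.8 ± 3.98 and 69.8 ± 2.54 CPM (−0.70, SE 0.10, FDR 0.0656), with no overlap in either gene. The 1 higher gene, named after its value was seen, was Comp, a matrix protein of cartilage and tendon (2.79, SE 0.88, FDR 0.197). Among 12 further pan-fibroblast genes 11 were below 0, with a median of −0.58. At an unadjusted p below 0.05, 5 of the 12 were lower, beside 7% of all genes. The chains of type I collagen, Col1a1 and Col1a2, were lower in every Smyd3 ASO tumour, at 1451 ± 125 CPM in Smyd3 ASO tumours and 2910 ± 1059 CPM in controls for Col1a1 (FDR 0.0939) and 1584 ± 112 and 2911 ± 794 CPM for Col1a2 (FDR 0.091).

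Genes of inflammatory and universal fibroblasts lay mostly on the other side. The median log2 fold change of 14 genes was 0.65, and 13 lay above 0. Their sum was 835 to 1578 CPM in Smyd3 ASO tumours and 674 to 954 CPM in controls, with responder 1 inside the control range. Groups did not overlap in 2 of the 14, both higher, as in 5.45% of all genes. There were 3 higher genes at an unadjusted p below 0.05, a level that 8.55% of all genes reached in that direction. The exception below 0 was Ackr3, the atypical receptor for Cxcl12, at −0.29. Ly6c1, a surface protein of fibroblasts, endothelium and leukocytes, averaged 302 ± 77.5 CPM in Smyd3 ASO tumours and 148 ± 26.98 CPM in controls (1.03, SE 0.23, FDR 0.105). Ccl2, the chemokine that attracts monocytes, averaged 47.9 ± 26.3 and 14.4 ± 6.96 CPM (1.73, SE 0.50, FDR 0.169), and both were higher in every Smyd3 ASO tumour. Il6 stood at 0.461 to 1.304 CPM in Smyd3 ASO tumours and 0.416 to 0.631 CPM in controls. Several of these genes are also expressed by leukocytes, whose 10 markers were all above 0 with a median of 0.30 and summed to 392 to 808 CPM in Smyd3 ASO tumours and 384 to 554 CPM in controls. The part of leukocytes in these values was not tested.

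The TGF-beta list held 12 genes, 10 of them below 0 with a median of −0.20. At an unadjusted p below 0.05, 3 were lower, Tgfbr2 and the latent TGF-beta binding protein Ltbp2 among them. Over all genes 7% were lower at that level. Tgfbr2, the type II receptor, averaged 133 ± 11.9 CPM in Smyd3 ASO tumours and 179 ± 4.61 CPM in controls (−0.43, SE 0.10, FDR 0.101). The ligands Tgfb1, Tgfb2 and Tgfb3 had log2 fold changes of −0.16, 0.06 and −0.17, with FDR of 0.744, 0.947 and 0.765.

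**Figure D3:**
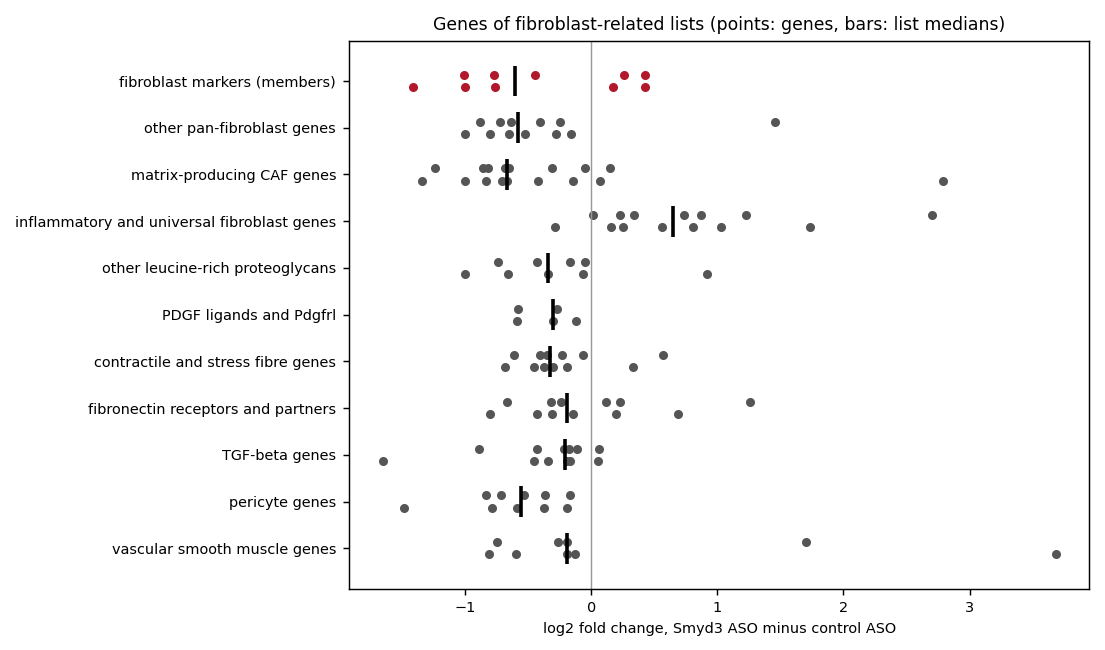
log2 fold change of each measured gene in Smyd3 ASO minus control ASO tumours for the 10 markers (red) and 10 related lists (grey), with black bars at list medians. The members' median is −0.60, that of the matrix-producing list −0.67 and that of the inflammatory and universal list 0.65.

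Responders were set against non-responders inside the Smyd3 ASO arm, groups defined by outcome with 2 tumours each. No member passed the FDR threshold in edgeR, which called 0% of genes, and neither DESeq2 nor limma voom called a member. The genes called by DESeq2 were 1.33% of all, those of edgeR without a count filter 0.0251% and those without responder 1 0.126%, and no member was among them. An unadjusted p below 0.05 was found for 1 member, Lrrc15, where 3.75% of all genes were lower at that level and 8.49% in either direction. The median log2 fold change of the 10 was 0.30, beside 0.013 over all genes. Both responders lay above both non-responders in Fap, Pdgfra, Acta2 and Dcn and below them in Lrrc15, and the groups overlapped in the other 5. Over all genes 20.3% did not overlap with responders higher and 18.9% with responders lower.

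The markers that were lower throughout the Smyd3 ASO arm were close between responders and non-responders, apart from Lrrc15. Pdgfrb averaged 57.4 ± 4.14 CPM in the responders and 55.5 ± 2.699 CPM in the 2 non-responders (SD, n = 2 each), with a log2 fold change of 0.05 (SE 0.23). Postn averaged 539 ± 53.2 and 560 ± 45.3 CPM (−0.06, SE 0.22), Fn1 838 ± 41.9 and 848 ± 256 CPM (−0.02, SE 0.32) and Tagln 68.1 ± 11.2 and 75.7 ± 22.4 CPM (−0.15, SE 0.27). Their FDR lay between 0.895 and 0.993, which does not show that they were equal. Lrrc15 averaged 48.0 ± 24.5 CPM in the responders and 82.6 ± 9.82 CPM in the non-responders (−0.78, SE 0.33, FDR 0.584). Without responder 3, whose 30.7 CPM was the lowest value of all tumours, the difference was −0.34, and without responder 1 it was −1.42. Pdgfra averaged 34.7 ± 14.9 and 19.0 ± 2.35 CPM (0.87, SE 0.41, FDR 0.604), a difference of 0.35 without responder 3. Fap averaged 12.7 ± 0.115 and 8.61 ± 1.62 CPM (0.55, SE 0.25, FDR 0.597). Acta2 averaged 246 ± 45.4 CPM in the responders and 158 ± 56.9 CPM in the non-responders (0.64, SE 0.34, FDR 0.637), and the difference was 0.30 without non-responder 2 and 1.06 without non-responder 1. The largest differences were in Dcn, with 123 ± 88.2 and 39.4 ± 24.4 CPM (1.64, SE 0.78, FDR 0.607), and Lum, with 38.3 ± 25.8 and 14.3 ± 11.3 CPM (1.42, SE 0.71, FDR 0.618). Without responder 3 they were 0.62 in Dcn and 0.50 in Lum, and without non-responder 2 they were 2.46 and 2.59. Without non-responder 1 Lum was 0.78.

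**Figure D4:**
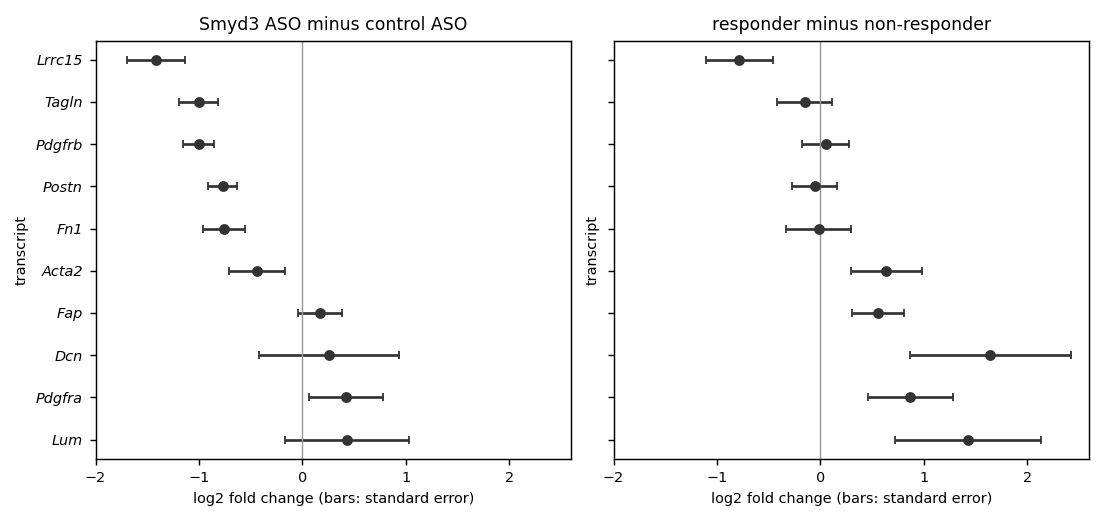
log2 fold change of each marker with its standard error, for Smyd3 ASO minus control ASO (left) and responder minus non-responder (right). The left panel runs from −1.41 in Lrrc15 to 0.43 in Lum, and in the right panel Pdgfrb, Postn, Fn1 and Tagln lie nearest 0.

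Summed markers of other cells are given here for the same tumours, without a test, and 0 genes of these lists passed the FDR threshold. The 15 skeletal muscle markers summed to 2547 and 12713 CPM in the responders, against 751 and 1109 CPM in the non-responders. Smooth muscle markers summed to 451 and 671 CPM in the responders and 312 and 305 CPM in non-responders, and Des supplied 229 and 398 CPM of this in the responders and 48.9 and 57.5 CPM in non-responders. Without Des, a sum added after the values were seen, the other 9 gave 223 and 274 CPM in the responders and 263 and 248 CPM in non-responders, and the groups overlapped. The 10 keratinocyte and carcinoma markers summed to 22097 and 18726 CPM in the responders and 36712 and 23600 CPM in non-responders. Endothelial markers summed to 349 and 419 CPM in the responders and 217 and 302 CPM in non-responders. Whether these tissues contributed to the fibroblast values was not tested.

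**Figure D5:**
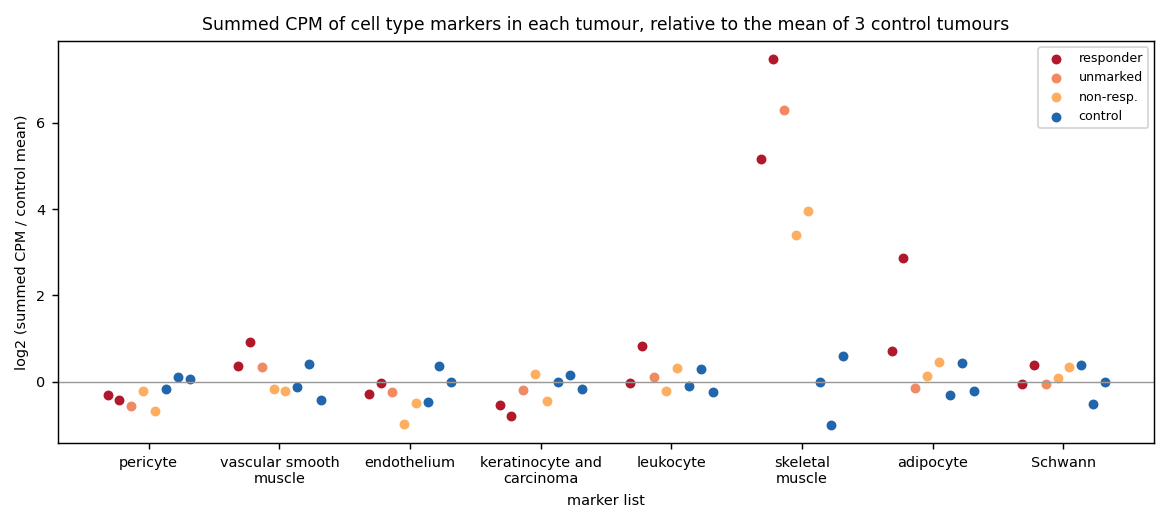
Summed CPM of each cell type marker list in every tumour, as log2 of the ratio to the mean of the 3 control tumours (0 line), with Smyd3 ASO tumours left of controls in each list. Skeletal muscle lies 3.40 to 7.48 above 0 in the Smyd3 ASO tumours, and the adipocyte list is highest in responder 3 at 2.86.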

How the data were processed

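Polyadenylated RNA of 8 MOC1 tumours was measured. The authors deposited expected counts, 1 value a gene and tumour, which sum to a different total in each column. Tools listed in the submitters' processing notes are RSEM 1.3.0, STAR 2.7.0f, cutadapt 1.18 and bcl2fastq 2.17, with build mm10 and no order or settings, and libraries were made with a stranded mRNA kit per the labels' protocols. All 55450 identifiers were found in GENCODE M21 with the same symbols, which gave coordinates and exon lengths.

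Columns were matched to tumours through the sample descriptions, and groups taken from the titles. Counts were rounded. Genes with at least 0.424 CPM (10 reads in the median library) in 2 libraries and 15 reads in all were kept, leaving 16911 genes and 99.93% of reads. Libraries were scaled by TMM (factors 0.9638 to 1.04) and tested in R 4.3.3 with edgeR 4.0.16, a robust quasi-likelihood fit, two-sided, with Benjamini-Hochberg adjustment over all genes. Smyd3 ASO against control ASO was fitted on treatment over 8 libraries. Responder against non-responder came from a 4-group model over the same libraries. Every SE is the log2 fold change divided by the square root of the F statistic. CPM is TMM-normalised, and log2 CPM uses a prior count of 2. Totals differ by little, so 1 CPM is 22.1 to 27.3 reads, and the smallest expected count of a member was 137. Labels do not say how animals were allotted or processed together. The p-values set a difference between groups against the spread between tumours within them. They cannot separate treatment or response from a difference in allotment or processing.

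Steps were tested on simulated counts. Alternatives were DESeq2 1.42.0, limma voom (limma 3.58.1), DESeq2 size factors, no filter, scaling without muscle, adipocyte and immunoglobulin genes, other models and leaving out each library. Members and lists were chosen with earlier results of these data known. All members are named, with the ASO target, close relatives of Acta2, Myh11, Rgs5 and the 5 genes nearest the members' median profile. From each other list the 2 genes of smallest p could be named, and not all of them are. Further list genes, such as Ckm, Adipoq, Il6, Ackr3, Ltbp2, Comp and the TGF-beta ligands, were chosen after their values were seen. The values of 1 gene of the TGF-beta list are not reported here.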

Additional observations from a re-analysis of the deposited data

Results flagged for a closer look

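Dcn in responder 3, at 185 CPM, stood apart from the other 4 Smyd3 ASO tumours, which lay between 22.2 and 60.5 CPM. The gap to the nearest of them was 0.765 of the group's range, above Dixon's critical value of 0.71 for 5 samples. All 10 members were examined in this way in the Smyd3 ASO arm, and chance sets off about 1 such test in 20. Lum came close in the same tumour, with a gap of 0.683 of the range. Both gaps were taken on CPM, and the test was not run on log2 CPM. Centred log2 CPM of Dcn was 1.75 in responder 3, 0.14 in responder 1 and −1.31 in non-responder 1. The gap was a smaller part of the range on that scale, so the flag rests on the CPM scale.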

How the results depend on the processing

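In Smyd3 ASO against control ASO, edgeR called 0 genes and 0 members. It called 52 genes and 1 member, Pdgfrb, without a count filter, and 25 genes and 0 members when a 4-group model averaged both response groups. DESeq2 called 1053 genes and 5 members. Among the 6 numbered libraries 286 genes and 1 member, Lrrc15, were called. With the replicate block these were 245 genes and 1 member, Tagln. Same-numbered tumours deviated together with r of −0.034, 0.00015 and 0.0764 across genes, and different-numbered ones with r of −0.15 to 0.137. So few values cannot exclude a pairing, and the labels state none. Leaving out 1 library at a time gave 0 to 258 genes and 0 to 4 members, the highest without non-responder 1, where Pdgfrb, Postn, Lrrc15 and Tagln passed, and 1 member, Pdgfrb, without control 1. DESeq2 size factors, limma voom, and scaling without muscle, adipocyte and immunoglobulin genes called 0. The cause of these differences was not tested. Pdgfrb, Postn, Lrrc15, Tagln, Fn1 and Acta2 kept a negative and Fap and Pdgfra a positive log2 fold change under all 16 alternatives. Dcn reversed without control 1 (−0.11) or responder 3 (−0.45), and Lum without responder 3 (−0.16). Leaving out 1 library, Dcn ranged from −0.45 to 0.83 and Lum from −0.16 to 0.67. The members' median ranged from −0.77 to −0.35.

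Between responders and non-responders edgeR called 0 genes, 7 without a count filter, 0 to 21 when 1 library was left out, and DESeq2 225. No member was called under any of the 10 alternatives. Values near 0 reversed. Fn1 was 0.017 with limma voom and, leaving out 1 library, ranged from −0.30 to 0.32, Pdgfrb from −0.021 to 0.12, Postn from −0.16 to 0.041 and Tagln from −0.44 to 0.19. The members' median ranged from 0.24 to 0.31. With 2 tumours a group, and 1 where a library is left out, a lone tumour is assumed to vary like the others. The titles of the non-responders carry no replicate number, so only the arms allowed a block.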

Other observations

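Within each tumour the marker pairs were also read as ratios of CPM, chosen after their values were seen and given without a test. The ratio of Pdgfra to Pdgfrb was 0.401, 0.83, 0.726, 0.302 and 0.385 in responder 1, responder 3, the unmarked tumour and non-responders 1 and 2, against 0.165, 0.214 and 0.189 in controls 1 to 3. Library scaling cancels in such a ratio. The ratio of Fap to Postn was 0.0126 to 0.0251 in Smyd3 ASO tumours and 0.00916 to 0.0103 in controls, again with no overlap. The ratio of Acta2 to Tagln was 1.97 to 4.62 in Smyd3 ASO tumours and 1.43 to 2.08 in controls, where non-responder 2 fell inside the control range. Lum over Dcn overlapped, at 0.285 to 0.415 in Smyd3 ASO tumours and 0.224 to 0.424 in controls. Lum over Lrrc15 was 0.0705 to 1.84 in Smyd3 ASO tumours and 0.067 to 0.13 in controls, with non-responder 1 inside the control range.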
